A study of Rattus norvegicus with 12 samples.

Results

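The step from 300 to 600 mg/kg of the antibiotic cephaloridine (CER) was described in rat kidney cortex, as the difference between the high dose group (600 mg/kg, 3 animals) and the middle dose group (300 mg/kg, 3 animals). These 6 samples were taken by their dose labels, but the groups, genes and lists were chosen with earlier results of these data known. They are 6 of the 12 in the series. The others are 3 low dose animals (150 mg/kg) and 3 control animals given the saline vehicle (0 mg/kg). Every animal was a male Fisher 344 rat of 8 weeks, received 1 intravenous dose and was sacrificed 24 h later, and each gave total RNA of kidney cortex to 1 single-colour Agilent array. The labels name no pooling of animals and no other time point, so recovery after the dose was not observed.

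Cephaloridine is a cephalosporin known for damage to the proximal tubule. Organic anion carriers of the basolateral membrane take it up from blood into the tubule cell, it leaves poorly across the brush border, and it accumulates there. The proximal tubule reabsorbs most filtered glucose, phosphate, amino acids and peptides and makes glucose; after injury its cells are known to lose these functions, to express stress and injury genes, and to re-enter the cell cycle.

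The 12 arrays were alike in brightness. Their median signal ran from 65.1 to 74.8, between 60.001% and 63.948% of the spots stood well above background, and 0 spots were saturated. The 3 high arrays and middle 3 lay on 1 slide (slide 4), whereas middle 1 lay on slide 2 and middle 2 on slide 3. High and middle animals therefore shared a slide only through middle 3, and values within slide 4 stand beside the results they change: there the slide is a block in the fit of all 12 arrays, and the difference is the mean of the 3 high arrays minus middle 3. Signals below are intensities after scaling every array to a common 75th percentile of 716.4, log2 changes are high minus middle from limma, errors are its standard errors (SE) with n = 3 animals per group, and a call needed an adjusted p (Benjamini-Hochberg, over all tested genes) under 0.05. A rise or fall written of a gene means such a call. Values follow the order of animals 1, 2 and 3, and where both groups are given without a name the middle animals come first.

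The step changed much of what was measured. Of 20755 tested genes or transcripts, 4663 (22.5%) were called, 1993 higher (9.6%) and 2670 lower (12.9%) at 600 than at 300 mg/kg. The neighbouring steps of dose gave few calls in the same fit, with 48 genes (0.231%) from 150 to 300 mg/kg and 21 (0.101%) from 0 to 150 mg/kg. From 0 to 300 mg/kg, an increment as large as that from 300 to 600 mg/kg, 2702 genes (13%) were called, 1704 higher and 998 lower. Falls were more numerous but small, and rises reached further. Among calls under 0.5 on the log2 scale, 1322 were higher and 2310 lower; from 1 to 2 they were 196 higher and 24 lower, and at 2 or more 40 higher and 0 lower.

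A call with a change of 2-fold or more was made for 260 genes (1.25%), of which 236 were higher and 24 lower. Of these 260, 52 were not well above background on any middle array and 3 on any high array, so their size is a bound. Such genes are given below with the bound and no exact change. A gene was tested if well above background on all 3 arrays of any group. Those given below with a bound for dim middle animals, apart from Cenpa, passed this filter through the high group alone, as did Cxcl2. Glp1r and Gh1 passed it through the middle group alone. Such genes were selected for being high in 1 of the compared groups. Normexp background correction with an offset of 50, which shrinks dim signals, left 81 calls of that size; its value is given beside each gene below that it moved by more than 1.5 times, and all of those kept their call unless said otherwise. The high arrays all lay above the middle arrays for 3224 genes (15.5%) and all below for 4400 (21.2%). Within slide 4, 2022 genes were called (9.74%), 1028 higher and 994 lower, and 1676 of them were among the 4663. The median SE was 0.0929 there and 0.0757 over all arrays. Counts for gene lists below are to be read beside these shares of all tested genes, 22.5% over all arrays and 9.74% within slide 4.

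**Figure D1:**
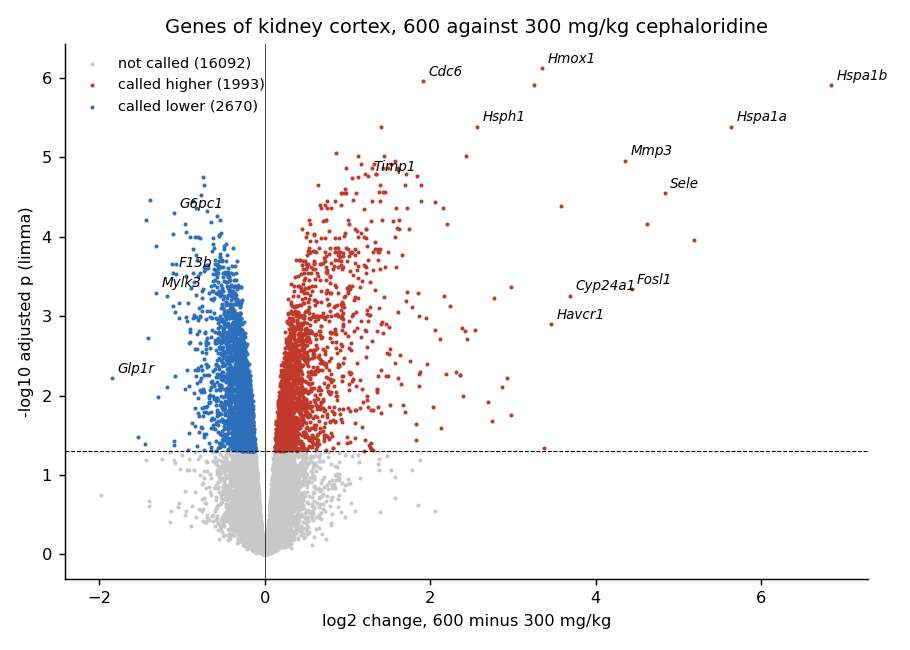
Log2 change from 300 to 600 mg/kg (horizontal) against -log10 of limma's adjusted p (vertical) for 20755 tested genes, with n = 3 animals per group; red points are the 1993 called higher, blue the 2670 called lower, and the dashed line is an adjusted p of 0.05. Among labelled genes measured above background in both groups, Hspa1a lies at 5.64 and G6pc1 at -1.10; Hspa1b, Sele, Fosl1 and Mmp3 were not above background at 300 mg/kg and Glp1r not at 600 mg/kg, so their positions are not exact.

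The dose step of 300 mg/kg from control to middle and the equal step from middle to high were set against each other in a contrast added after the data were seen. For 2364 genes (11.4%) the second change differed from the first, being higher for 884 and lower for 1480; both changes use the middle arrays, whose error enters them with opposite sign.

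The 3 middle animals lay between the controls and the high animals. For the 351 genes called with at least 2-fold change between control and high (1.69% of those tested), each array was placed on a scale with the control mean at 0 and the high mean at 1. The median place was 0.240, 0.209 and 0.221 for the middle animals and 0.033, 0.157 and 0.145 for the low animals. The 267 genes higher at 600 mg/kg than in controls put the middle animals at 0.191, 0.161 and 0.125, and the 84 lower genes put them between 0.487 and 0.541. Over all genes called between control and high, with no limit of size, the place of middle 1 was 0.351, the place of middle 2 0.403 and the place of middle 3 0.43. All 3 middle animals lay well below the high animals, at 1.028, 0.939 and 1.030. The scale itself puts the high animals near 1, and the genes were chosen by the difference between high and control animals. Spread between animals was widest in the middle group, with a median SD of 0.1096 on the log2 scale against 0.0699 in the high group, and the middle animals came from 3 slides and the high animals from 1; the part of the slides in this was not tested.

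**Figure D2:**
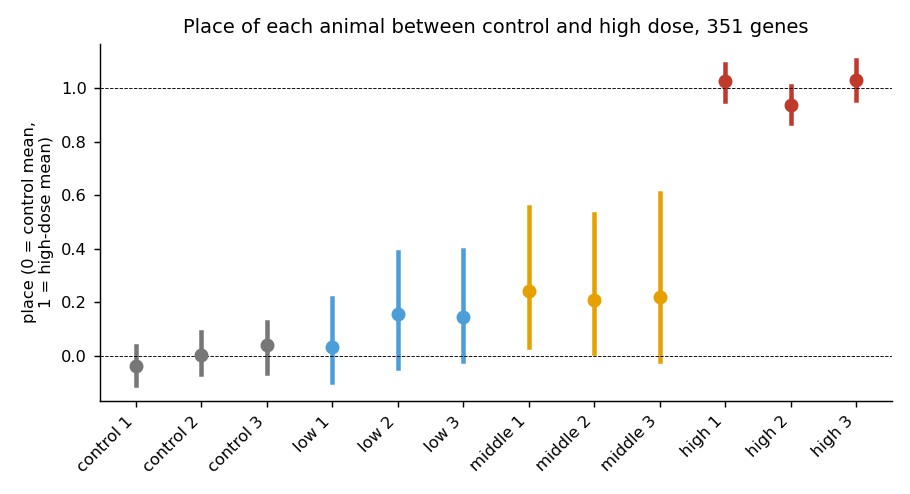
Place of each of the 12 animals (horizontal) on a scale with the control mean at 0 and the high dose mean at 1 (vertical), over 351 genes called with at least 2-fold change between those groups; points are medians and bars run from the lower to the upper quartile of the genes. The middle animals sit at 0.240, 0.209 and 0.221, below the high animals at 0.939 to 1.030.

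The stress-inducible HSP70 genes stood far above their level at 300 mg/kg, and other heat shock chaperones rose less. These proteins refold or hold other proteins under stress, and their genes are driven by heat shock factors that bind paired GAA and TTC letters. Of 26 tested members, 12 were called higher and 1 lower, with a median log2 change of 0.20, against 9.6% and 12.9% and a median of -0.02 over all tested genes. Within slide 4, 10 were called higher and 0 lower.

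Hspa1a, the stress-inducible HSP70, gave signals of 2266, 1431 and 1738 in the middle animals and 96405, 79332 and 90526 in the high animals. All 3 high values stood far above every other animal, the next being a low dose animal at 3900.5. The log2 change was 5.64 (SE 0.28, adjusted p = 4.14e-06), a 49.7-fold rise. Its neighbour Hspa1b, nearly identical in sequence, was not well above background in any middle animal and gave 658, 511 and 583 in the high animals. That is at least 26.1-fold higher, the bound being the dimmest signal still well above background on each middle array, with adjusted p = 1.24e-06. Because the copies are so alike, the probe of 1 may hold signal of the other. Hspa1a and Hspa1b kept their calls within slide 4, where the log2 change of Hspa1a was 5.67.

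Hsph1, an HSP110 nucleotide exchange factor of HSP70, gave 1199.5, 865 and 1118 in the middle animals and 6590.0, 5473 and 6764 in the high animals, with no overlap (log2 2.57, SE 0.13, adjusted p = 4.14e-06). The other rises were smaller. Bag3, a cochaperone of HSP70 in autophagy, rose 1.89-fold, Hsp90aa1, the inducible cytosolic HSP90, rose 1.81-fold, the small chaperone Hspb1 1.69-fold and the HSP40 gene Dnajb1 1.46-fold (adjusted p = 2.86e-05, 0.00043, 0.000284 and 0.00155). Hspa8, the constitutive HSP70, overlapped between the groups, with a log2 change of 0.10 (adjusted p = 0.249). Hspa4, another HSP110 gene, fell slightly (log2 -0.30, adjusted p = 0.0457); that call was lost within slide 4 (adjusted p = 0.441), without high 1, high 2, high 3, middle 1 or middle 2 (up to 0.131), and on its other probe (log2 0.02).

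The promoters of the heat shock genes called higher were searched for the pair GAANNTTC or TTCNNGAA, each of which reads the same on both strands. In RefSeq promoters of assembly GRCr8, from 250 bases before to 50 after the start of transcription, it stood in 6 of the 9 heat shock genes called higher that had a promoter in the table, against 15.85% of all 33469 promoters. Among the 9611 promoters of tested genes the share was 11.84%, and the share among heat shock genes not called higher was not taken. Shown are the 250 bases before the start for the 4 of these 6 genes that rose most, to show the letters they share. Capitals mark the matches, and overlapping matches run together. The stretches are, in this order, chr12:10427118-10427367 (plus strand), chr1:192533210-192533459 (plus strand), chr12:26432302-26432551 (minus strand) and chr19:41431142-41431391 (minus strand).
Hsph1: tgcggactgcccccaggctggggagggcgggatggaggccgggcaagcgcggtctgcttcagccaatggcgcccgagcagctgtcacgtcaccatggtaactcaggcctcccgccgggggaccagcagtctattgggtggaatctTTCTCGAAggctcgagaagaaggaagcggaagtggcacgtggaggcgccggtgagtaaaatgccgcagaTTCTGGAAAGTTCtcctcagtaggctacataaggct
Bag3: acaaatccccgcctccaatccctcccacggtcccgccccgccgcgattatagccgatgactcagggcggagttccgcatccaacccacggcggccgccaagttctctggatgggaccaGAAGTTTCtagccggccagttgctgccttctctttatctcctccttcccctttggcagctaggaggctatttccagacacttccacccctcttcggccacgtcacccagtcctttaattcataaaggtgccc
Hspb1: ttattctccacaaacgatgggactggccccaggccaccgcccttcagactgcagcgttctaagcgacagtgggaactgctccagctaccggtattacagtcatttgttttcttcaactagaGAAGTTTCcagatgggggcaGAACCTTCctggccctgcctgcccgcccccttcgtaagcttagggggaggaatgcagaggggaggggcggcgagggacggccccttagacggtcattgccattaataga
Dnajb1: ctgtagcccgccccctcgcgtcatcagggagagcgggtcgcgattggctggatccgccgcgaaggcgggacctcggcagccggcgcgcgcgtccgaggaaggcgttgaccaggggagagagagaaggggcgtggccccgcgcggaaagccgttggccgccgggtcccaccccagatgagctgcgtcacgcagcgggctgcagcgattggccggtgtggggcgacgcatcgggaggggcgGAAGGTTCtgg
Hsph1 held 3 matches, Bag3 1, and Hspb1 and Dnajb1 2 each, of which 1 in Dnajb1 lies after the start and is not shown. Dnaja1 and Hspd1 held the motif too and rose by 0.29 and 0.25 on the log2 scale, Hspd1 losing its call within slide 4 (adjusted p = 0.0583). Hspa1a, Hspa1b and Hsp90aa1 are not among the 6 genes, for lack of a match or of a promoter in the table. A match is a description of letters, and binding was not measured. Among promoters of all genes called higher by at least 2-fold, 18 of 135 (13.33%) held the motif.

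**Figure D3:**
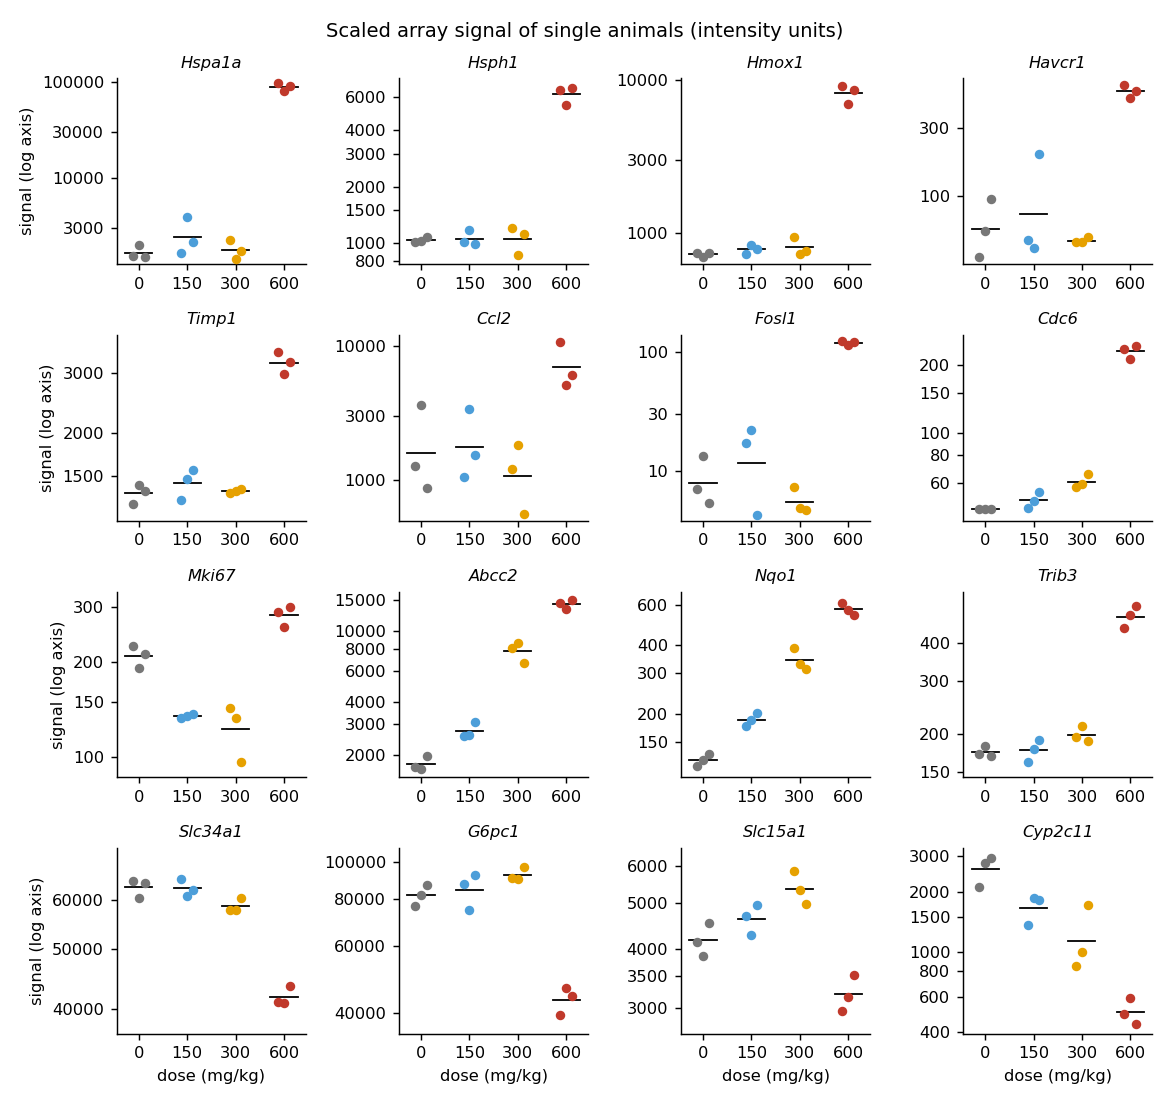
Scaled array signal (vertical, intensity units on a log axis) of 16 genes in single animals by dose (horizontal, mg/kg); points are the 3 animals of a group and the line is their geometric mean. In all 16 panels the 600 mg/kg animals do not overlap the 300 mg/kg animals. Abcc2, Nqo1, Cdc6 and Slc15a1 had already risen, and Mki67 and Cyp2c11 fallen, between 0 and 300 mg/kg.

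Among genes of oxidative stress, Hmox1 rose far above its level at 300 mg/kg. Hmox1, which degrades heme, gave 943, 724 and 763 in the middle animals and 9176, 7016 and 8653 in the high animals. Middle animals were near the controls (730.2, 697 and 737), and the high animals were 10.2-fold higher (log2 3.35, SE 0.11, adjusted p = 7.65e-07). Of 41 tested targets of the oxidant sensor NRF2 and glutathione genes, 7 were called higher and 5 lower (29.3% called against 22.5% over all tested genes; 4 and 3 within slide 4), with a median of -0.02, as over all tested genes. For 12 of the 41 the change at the step to 600 mg/kg was lower than that at the step to 300 mg/kg, and for 2 it was higher.

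Nqo1, a quinone reductase and standard NRF2 target, showed this course. It gave 118, 126 and 133 in controls, 387, 329.7 and 315 in middle animals and 613, 572 and 541 in high animals. It had already risen by 1.45 on the log2 scale at 300 mg/kg and rose by a further 0.75 (SE 0.086, adjusted p = 0.000348), the second change being the smaller (adjusted p = 0.0168 for the difference). Srxn1, which restores peroxiredoxins, rose 2.64-fold (adjusted p = 0.000258; log2 1.40, after normexp 0.82), and the aldo-keto reductase Akr1b8 rose 1.84-fold (adjusted p = 0.00404). Txnrd1, thioredoxin reductase, rose 1.33-fold (adjusted p = 0.00373), but not within slide 4 (adjusted p = 0.0793); 2 of its 3 other probes were called higher and 1 was not (log2 0.20). Gclc and Gclm, the subunits of the enzyme that limits glutathione synthesis, missed the threshold, at 0.11 (adjusted p = 0.392) and 0.11 (adjusted p = 0.724) on the log2 scale. The change of Gclc was -0.083 within slide 4. The members that fell were Gsta4, a glutathione transferase for lipid aldehydes (log2 -0.38, adjusted p = 0.0012), the retinal dehydrogenase Aldh1a1 (-0.36), catalase Cat (-0.28), another transferase Gsta3 (-0.23) and the secreted peroxidase Gpx3 (-0.27). The call for Gsta3 was lost within slide 4 (adjusted p = 0.294), and that for Gpx3 was lost within slide 4 (adjusted p = 0.21) and without high 1, high 2, high 3, middle 1 or middle 2 (up to 0.107).

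Conjugation and efflux genes gave 3 higher and 4 lower of 16 (43.8% called against 22.5% over all tested genes), but 1 and 1 within slide 4. Abcc2, the conjugate pump of the brush border, gave 1726, 1682 and 1967 in controls, 8111, 8602 and 6598 at 300 mg/kg and 14436, 13412 and 15005 at 600 mg/kg. The rise from 300 to 600 mg/kg was 1.85-fold (adjusted p = 0.00052) and smaller than that from 0 to 300 mg/kg (adjusted p = 0.00558 for the difference). Abcb1b, a P-glycoprotein gene, rose 1.56-fold (adjusted p = 0.00488; 0.0775 within slide 4). Slc47a1, the brush border exporter of organic cations, fell by 0.33 on the log2 scale (adjusted p = 0.0155), a call lost within slide 4 (0.0925) and without high 1 or high 3 (up to 0.0563).

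Injury markers of the tubule gave rises but no falls. Of 33 tested, 19 were called higher, 0 lower and 14 neither way, with a median of 0.47. That is 57.6% called against 22.5% over all tested genes, and within slide 4 the counts were 14 and 0. Havcr1, the kidney injury molecule on damaged proximal tubule cells, gave 47.4, 47.8 and 51.5 in the middle animals and 591, 486 and 541 in the high animals (log2 3.46, SE 0.51, adjusted p = 0.00127). The middle animals lay within the control range, and 1 low dose animal stood between the groups at 198.

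Timp1, an inhibitor of metalloproteinases, gave 1338, 1353 and 1373 and then 3459, 2972 and 3238, a 2.37-fold rise between groups that did not overlap (adjusted p = 1.74e-05). Tnfrsf12a, the receptor for TWEAK, rose 2.23-fold, and the adhesion genes Icam1 and Vcam1 rose 2.23-fold and 1.9-fold (adjusted p = 9.13e-05, 0.00184 and 0.000226). Gpnmb, a lysosomal glycoprotein gene, rose 2.19-fold (adjusted p = 0.000156). Lcn2, lipocalin of injured tubules that binds iron carriers, was dim and not well above background in middle animals, and was at least 1.88-fold higher in high animals (40.8, 46.7 and 38.8; adjusted p = 0.00707). Spp1, osteopontin, did not overlap between the groups yet missed the threshold (log2 0.59, adjusted p = 0.0757). Clu, clusterin, and Vim, vimentin, missed it too (log2 0.22 and 0.23, adjusted p = 0.223 and 0.066).

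Fibrinogen chains led the acute phase genes, of which 9 rose and 3 fell of 20 (3 and 2 within slide 4). Fgg gave 31.4, 30.1 and 28.5 in the middle animals and 85.4, 102 and 91.2 in the high animals, a 3.09-fold rise (adjusted p = 6.12e-05; log2 1.63, after normexp 0.76). Fgb rose 2.05-fold from higher signals, 948, 1012 and 844 against 1707, 1938 and 2103 (adjusted p = 0.000458). Apcs, serum amyloid P, went the other way, from 5090.5, 5189.5 and 4704 to 2410.4, 2555 and 2794 (log2 -0.95, SE 0.11, adjusted p = 0.000315), with no overlap between the groups.

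Among 36 matrix and protease genes, 15 rose and 1 fell (44.4% called against 22.5% over all tested genes), but within slide 4 the counts were 4 and 1. Mmp3, stromelysin, was not well above background in middle animals and gave 158, 65.7 and 99.4 in high animals, at least 4.53-fold higher (adjusted p = 1.11e-05). Adamts4, an aggrecan-cleaving protease, was at least 2.21-fold higher (adjusted p = 0.00506), a call lost within slide 4 (adjusted p = 0.0891), where middle 3 had the highest of the 3 middle signals. The fibrillar collagens Col1a1, Col1a2 and Col3a1 overlapped between the groups (log2 -0.058, -0.054 and 0.14; adjusted p = 0.692, 0.563 and 0.169).

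Most chemokine, cytokine and adhesion genes rose. Of 31 tested inflammation genes, 24 were called higher and 0 lower (77.4% called against 22.5% over all tested genes). The median was 0.71, and 19 and 0 were called within slide 4. Their median change from control to 300 mg/kg was -0.20, and that from control to 600 mg/kg was 0.59.

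Sele, the E-selectin that captures leukocytes on endothelium, was not well above background in middle animals and gave 369.9, 264 and 262 in high animals, at least 13.2-fold higher (adjusted p = 2.87e-05). Ccl2, which draws monocytes, gave 1200.2, 1824 and 552 in middle and 10777, 5059 and 6079.8 in high animals (log2 2.70, SE 0.62, adjusted p = 0.0122). The groups did not overlap, but control 2 and low 2 reached 3593 and 3365, and middle 3 was the lowest array, so the log2 change within slide 4 was larger, 3.65. Its neighbour Ccl7 rose 7.59-fold (adjusted p = 0.00598), with a log2 change of 2.92 over all arrays, 4.01 within slide 4 and 1.81 after normexp.

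The neutrophil chemokines varied more between animals. Cxcl1 gave 127, 194 and 85.9 in middle and 1722, 756 and 796 in high animals (log2 2.98, SE 0.74, adjusted p = 0.0173). Its call was lost without high 1 or middle 3 (up to 0.066) and within slide 4 (0.0563), where the log2 change was larger, 3.56. Cxcl2 gave 16.6, 31.9 and 14.4 and 275, 185 and 168 (log2 3.38, after normexp 1.61; adjusted p = 0.0453), and lost its call without any 1 of the 6 arrays (up to 0.122). Low 2 and low 3 lay at 267 and 562 for Cxcl2, within or above the range of the high animals, and this spread enters the shared error. Its middle signals were well above background on 1 of 3 arrays. Cxcl10, a chemokine of activated T cells, rose 4.74-fold (adjusted p = 0.000749) and the cytokine Il1b 4.09-fold (adjusted p = 0.014). Il6 did not enter the test.

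Of 16 tested macrophage markers, 5 rose and 0 fell (31.2% called against 22.5% over all tested genes; 2 and 0 within slide 4), with a median of 0.24; Adgre1, a surface receptor of mature macrophages, gave 895, 910.0 and 882 and 1529, 1367 and 1491 (adjusted p = 0.000213), while Cd68 overlapped (log2 0.11, adjusted p = 0.369). The summed signal of the 16 ran from 67078 to 77172 in middle and from 68586 to 78452 in high animals. In bulk tissue, fewer or more cells of a type and less or more RNA per cell cannot be told apart. Of 12 neutrophil markers, S100a9 alone was tested, and it entered the test through the high group alone. It rose to 23.0, 29.9 and 33.1, at least 1.27-fold above middle animals that were not well above background (adjusted p = 0.00154). Controls gave 12.8, 27.0 and 14.3, with 1 of 3 arrays well above background. The high animals overlapped the controls and were not called against them (adjusted p = 0.149 in limma). The middle animals were called lower than the controls (adjusted p = 0.0194 in limma). Of 12 tested T and NK cell markers, 0 rose and 1 fell, Gzma (log2 -0.49, adjusted p = 0.035), a call lost within slide 4 (0.306) and without high 1, high 2, middle 2 or middle 3 (up to 0.112). The part of these cells in the chemokine and adhesion results was not tested.

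Immediate early genes and partners of the AP-1 factor gave 14 higher and 0 lower of 31, with a median of 0.63. Fosl1, a FOS family member of AP-1, was not well above background in middle animals and gave 123, 113 and 121 in high animals, at least 5.33-fold higher (adjusted p = 0.00046). Atf3, a stress-induced repressor, gave 601, 691 and 564 and 3664, 2843 and 3592, a 5.43-fold rise (adjusted p = 0.00195), and Myc, a growth regulator, rose 2.03-fold (adjusted p = 0.00709). Between control and high animals Myc was not called (log2 0.49, adjusted p = 0.0943 in limma), and its middle mean lay below the control mean (log2 -0.52, adjusted p = 0.124).

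The order of dose did not hold for the fastest genes. Fos gave 97.8, 193 and 91.5 in middle and 453, 551 and 331 in high animals, without overlap, but 3116 and 3209.9 in low 2 and low 3 (log2 1.86, SE 1.06, adjusted p = 0.24). Egr1 likewise reached 6208 and 6163 there, above the high animals at 2316, 2206 and 1907 (log2 1.78, adjusted p = 0.0861). Egr2 passed (log2 2.75, after normexp 1.61, adjusted p = 0.0207), and lost its call without high 1, high 2, high 3 or middle 1 (up to 0.0652). With the slide as a block, which absorbs the gap between low 1 and the other low animals, Fos and Egr1 were called (adjusted p = 0.025 and 0.0163). Letters of the AP-1 site TGANTCA stood in 16 of 135 promoters of genes called higher by at least 2-fold (11.85%) and in 7.33% of all promoters. Those of the antioxidant response element, TGACNNNGC or GCNNNGTCA, were searched too. They stood in 26 of the 135 (19.26%), in 12.06% of all promoters and in 17.47% of those of genes called lower. Among NRF2 and glutathione genes called higher, 1 of 6 promoters held them (16.67%).

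Nearly all genes of DNA replication rose. Of 38 tested members, 35 were called higher and 1 lower, with a median of 0.81; within slide 4 the counts were 32 and 0. For 26 the change at the step to 600 mg/kg was higher than at the step to 300 mg/kg, and for 1 it was lower.

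Cdc6, which loads the replicative helicase at origins, gave 57.9, 59.5 and 66.0 in middle and 234, 213 and 242 in high animals. The spread within each group was small against that gap (log2 1.91, SE 0.073, adjusted p = 1.11e-06, log2 after normexp 1.19). Ccne1, the cyclin of entry into S phase, gave 437, 386 and 356 and 1705, 1214 and 1478, a 3.71-fold rise (adjusted p = 2.24e-05). The helicase subunit Mcm5 rose 3.25-fold and the replication clamp Pcna 1.68-fold (adjusted p = 2.24e-05 and 6.19e-05). Uhrf1, which helps copy DNA methylation, was dim in middle animals and at least 2.9-fold higher in high animals (adjusted p = 0.000568).

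E2F factors drive S-phase genes through TTTCCCGC or, on the other strand, GCGGGAAA. These letters stood in 6 of 30 matched promoters of S-phase genes called higher (20.0%). They stood in 0.97% of all promoters, 2.01% of promoters of tested genes and 3.31% of 1118 promoters of genes called higher. The 6 matches are shown with 11 bases on each side and in capitals, to show the letters these genes share; that of Rfc3 lies after the start of transcription. They lie at chr9:1222982-1223011 (plus strand), chr19:13488794-13488823 (plus strand), chr9:30733734-30733763 (minus strand), chr8:44629853-44629882 (minus strand), chr12:22163393-22163422 (minus strand) and chr12:5836564-5836593 (plus strand) of GRCr8.
Uhrf1: ccgctaagttcGCGGGAAActcgcgcggtc
Mcm5: ccaggttggttTTTCCCGCgaaagtcggct
Mcm3: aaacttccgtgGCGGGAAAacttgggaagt
Chek1: agcaggttttgGCGGGAAAagctgtgcact
Mcm7: aatttcgaaccGCGGGAAAtcgggtgccca
Rfc3: ctttcgcgctcGCGGGAAAactcgtctgtc
Besides Uhrf1, given above as a bound, the genes rose by 1.70, 1.43, 1.21, 0.69 and 0.43 on the log2 scale.

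Most mitosis genes rose as well, with 31 higher and 0 lower of 37 and a median of 0.74 (30 and 0 within slide 4, median 0.93). Their course over dose was not monotonic: the median stood at -0.52 at both 150 and 300 mg/kg and at 0.19 at 600 mg/kg, relative to controls, and for 31 of the 37 the second change exceeded the first. Mki67, the Ki-67 proliferation antigen, gave 226, 192 and 213 in controls, 143, 133 and 96.8 in middle and 289, 258 and 299.7 in high animals. Middle animals lay below every control and high animals above every control (high minus middle log2 1.20, SE 0.13, adjusted p = 0.000226). Ccnb1, the mitotic cyclin B1, gave 869, 690.4 and 769 in controls, 435, 436 and 345 at 300 mg/kg and 658, 589 and 690.2 at 600 mg/kg, so its rise from middle to high (adjusted p = 0.00186) ended at or below the control values. Cenpa, the histone variant of centromeres, was well above background on 0 of 3 middle and 2 of 3 high arrays, and was at least 1.48-fold higher (adjusted p = 0.00538). Cdk1, the mitotic kinase, rose 2.22-fold from middle to high (adjusted p = 0.00043).

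**Figure D4:**
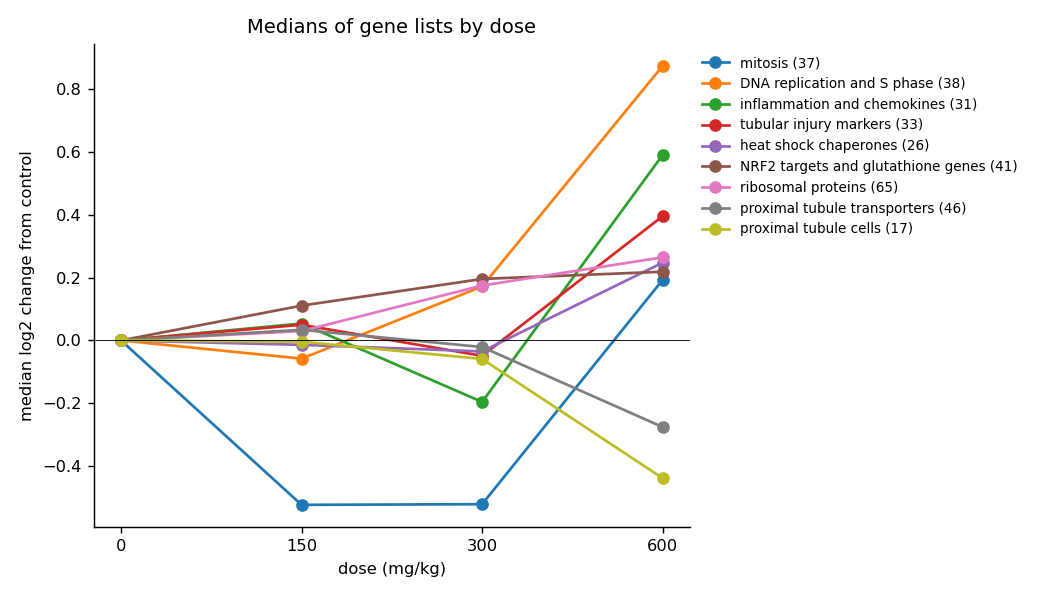
Median log2 change from control (vertical) of 9 gene lists by dose (horizontal, mg/kg), with the number of tested members in brackets; each point is a median over members, not over animals. The mitosis list lies at -0.52 at 300 mg/kg and 0.19 at 600 mg/kg, and the list of proximal tubule cell markers ends lowest at -0.44.

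Targets of p53, the DNA damage regulator, gave 7 higher and 2 lower of 22, with a median of 0.05. That is 40.9% called against 22.5% over all tested genes, and within slide 4 the counts were 4 and 2. Cdkn1a, the cell cycle inhibitor p21, gave 440.4, 393 and 493 in middle and 730.3, 1017 and 1027 in high animals (log2 1.05, SE 0.21, adjusted p = 0.00654), with adjusted p = 0.0619 within slide 4. Fas, a death receptor, rose 1.65-fold (adjusted p = 0.00104). Mdm2, the p53 ubiquitin ligase, did not pass on the probe used (log2 0.12, adjusted p = 0.336), passed there within slide 4 (log2 0.32, adjusted p = 0.0252), and rose on its other probe (log2 0.34, adjusted p = 0.008). Sesn1, a stress-responsive target, fell (log2 -0.59, adjusted p = 0.00107). Gdf15, a stress cytokine, rose 1.85-fold (adjusted p = 0.0401), a call lost without any 1 of the 6 arrays (up to 0.118). Apoptosis genes gave 8 higher and 3 lower of 35 (31.4% called against 22.5% over all tested genes; 4 and 1 within slide 4), led by Birc3, an inhibitor of apoptosis (2.62-fold, adjusted p = 0.0008).

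Targets of ATF4, the factor of the integrated stress response, split, with 13 higher and 7 lower of 37 (8 and 2 within slide 4). Over all arrays 54.1% were called, against 22.5% of all tested genes. Chac1, which cleaves glutathione, was not well above background on any middle array and gave 87.9, 97.5 and 112 in high animals, at least 4.4-fold higher (adjusted p = 7.01e-05). Trib3, a pseudokinase, gave 196, 212 and 189.5 and 449.5, 497 and 531 (log2 1.30, SE 0.08, adjusted p = 1.38e-05). Asns, asparagine synthetase, rose 1.84-fold (adjusted p = 0.000195). The serine synthesis enzymes Phgdh and Psat1 fell in the same animals (log2 -0.53 and -0.48, adjusted p = 0.000509 and 0.0013).

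Chaperones of the endoplasmic reticulum gave 1 higher and 3 lower of 23, which is 17.4% called against 22.5% over all tested genes, with a median of -0.15. Those 4 calls were lost within slide 4. Hspa5, the BiP chaperone, gave 49587, 43012 and 45999 and 38031, 38185 and 42835 (log2 -0.22, adjusted p = 0.05001), without overlap and just missing the threshold. Ddit3, the CHOP factor, overlapped at 697, 699 and 687 and 702, 686 and 726 (log2 0.021, adjusted p = 0.889). Edem1, of the degradation pathway for misfolded proteins, fell (log2 -0.32, adjusted p = 0.00816), as it did on 1 of its 2 other probes; 1 low array was dropped for it.

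Most markers of proximal tubule cells fell, each by a small amount. Of 17 marker genes of proximal tubule cells, 0 were called higher and 15 lower, with a median of -0.40, against 12.9% lower over all genes; 8 were called lower within slide 4. Their summed signal ran from 1049694 to 1139432 in middle and from 850572 to 907044 in high animals, without overlap. All 17 were tested, as were 10 of 12 podocyte markers, so RNA of cells that define the labelled cortex was present.

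**Figure D5:**
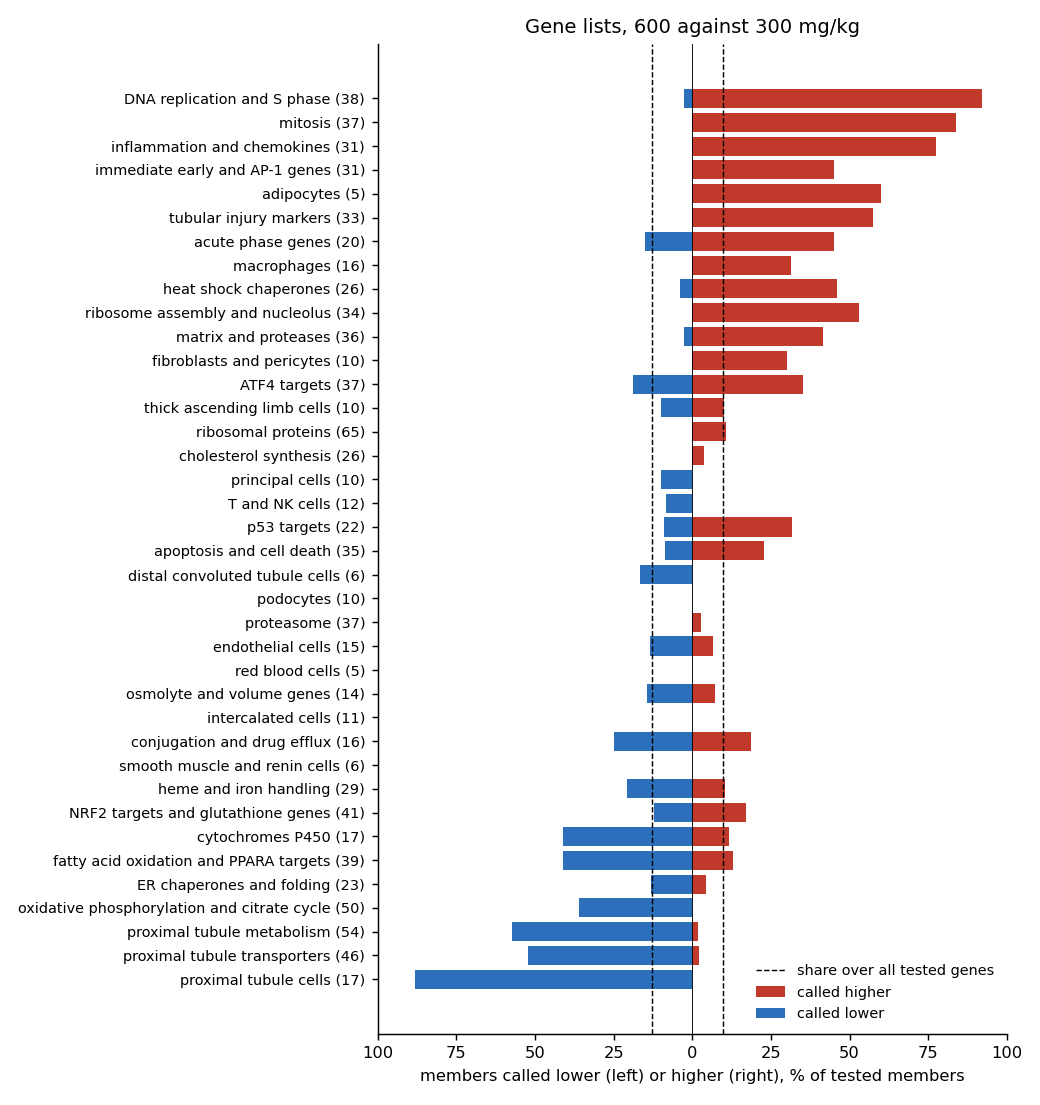
Share of the tested members of each gene list with at least 5 tested (number in brackets) called lower (left, blue) or higher (right, red) at 600 than at 300 mg/kg, in percent; dashed lines are the shares over all tested genes, 12.9% lower and 9.6% higher. Lists are ordered by their median log2 change, with replication, mitosis and inflammation at the top and proximal tubule lists at the bottom.

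Among 46 transporters of the proximal tubule, 24 fell and 1 rose, with a median of -0.27 (18 and 1 within slide 4, median -0.34). Slc34a1, the main phosphate carrier of the brush border, gave 57672, 57727 and 60367 in middle and 40976, 40860.4 and 43490.5 in high animals (log2 -0.49, SE 0.046, adjusted p = 0.000132). The 3 high animals lay below all 9 others. Slc15a1, a peptide carrier that also takes up cephalosporins, fell from 5839, 5327 and 4976 to 2959.5, 3161 and 3516 (adjusted p = 0.000456), and Slc7a8, an amino acid carrier, fell by 0.73 on the log2 scale (adjusted p = 0.000275). Slc20a1, a housekeeping phosphate carrier, was the member that rose (1.44-fold, adjusted p = 0.00022).

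The organic anion carriers that load the cell with cephaloridine were lower at 600 mg/kg. Slc22a6, OAT1, gave 24047, 20126 and 23301 and 17109.8, 16181 and 18124 (log2 -0.39, SE 0.10, adjusted p = 0.0204), without overlap. Its call was lost without high 1, high 2, middle 1 or middle 3 (up to 0.0709). It was also lost within slide 4 (0.102), where the log2 change was -0.44. Slc22a8, OAT3, gave 5153, 4240.5 and 4425 and 3311, 3443 and 3577 (log2 -0.42, adjusted p = 0.0129; 0.0762 within slide 4). The organic cation carrier Slc22a2 fell by 0.39 on the log2 scale (adjusted p = 0.00839). Lrp2, megalin, the endocytic receptor of the brush border, fell (log2 -0.37, adjusted p = 0.0196) but not within slide 4 (0.138) nor without high 1, high 2 or middle 2 (up to 0.0669), and the glucose carrier Slc5a2 fell (log2 -0.43, adjusted p = 0.00269; 0.0779 within slide 4).

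Metabolic genes of the proximal tubule gave 31 lower and 1 higher of 54, with a median of -0.26 (23 and 1 within slide 4). G6pc1, the last enzyme of glucose production, gave 90514, 90282 and 97098 in middle and 39429, 46474 and 44363 in high animals, a fall to below every other animal (log2 -1.10, SE 0.088, adjusted p = 5.12e-05). Pck1, an earlier enzyme of that pathway, fell by 0.54 on the log2 scale (adjusted p = 0.00838). Folh1, a brush border peptidase that releases folate, fell 1.88-fold (adjusted p = 0.00218), and Hnf4a, a transcription factor of proximal tubule identity, fell 1.35-fold (adjusted p = 0.000301).

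The member that rose was Cyp24a1, which inactivates vitamin D. It gave 741, 597 and 283 in controls, 247, 179 and 64.0 in middle and 1563, 1778 and 2183 in high animals (high minus middle log2 3.69, SE 0.46, adjusted p = 0.000554). Middle 3 was the lowest of all 12 animals, so the log2 change within slide 4 was larger, 4.83. Cyp27b1, which activates vitamin D, gave 159, 159.6 and 232 and 127, 129 and 144 and did not pass over all arrays (log2 -0.44, after normexp -0.27, adjusted p = 0.0735), but was lower within slide 4 (log2 -0.81, adjusted p = 0.0383). Of 17 cytochromes P450, 2 rose and 7 fell (52.9% called against 22.5% over all tested genes), and within slide 4 the counts were 2 and 6. Cyp2c11, a male-specific steroid hydroxylase of a family with similar members, gave 2120.0, 2786 and 2947 in controls, 850.1, 1006 and 1724 in middle and 488, 592 and 438 in high animals (adjusted p = 0.00773 from middle to high), with a log2 change of -1.18 over all arrays and -1.78 within slide 4.

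Genes of energy metabolism gave more falls than rises, and most falls were small. Of 39 genes of fatty acid oxidation and targets of the lipid sensor PPARA, 16 fell and 5 rose (8 and 2 within slide 4). The respiratory chain and citrate cycle list gave 18 lower and 0 higher of 50 (5 and 0 within slide 4). The shares called were 53.8% and 36.0%, against 22.5% of all tested genes. Within slide 4 the 5 of 50 lay near the 9.74% of all tested genes. Acaa2, of the last step of mitochondrial beta-oxidation, gave 33678, 37628 and 29897 and 22550.3, 22024 and 23887 (log2 -0.56, SE 0.088, adjusted p = 0.00187), near the control values of 21419, 20754 and 22732. Mdh1, cytosolic malate dehydrogenase, fell 1.33-fold (adjusted p = 0.000736).

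The 5 risers among the oxidation and PPARA genes were led by 2 secreted proteins of lipid transport. Angptl4, an inhibitor of lipoprotein lipase, gave 146, 116 and 140.4 and 609, 510.0 and 681, a 4.46-fold rise (adjusted p = 4.32e-05), and Apoa4, an apolipoprotein, rose 1.81-fold (adjusted p = 0.000405). Of 5 tested adipocyte markers, 3 rose, among them the lipid droplet gene Cidec (log2 0.53, adjusted p = 0.00705; 0.12 within slide 4, where 1 marker was called), while Adipoq, adiponectin, overlapped (log2 0.077, adjusted p = 0.479). Their summed signal ran from 1477 to 1787 in middle and from 1986 to 2184 in high animals; the part of fat cells in the lipid genes was not tested. Of 26 cholesterol synthesis genes 1 was called, Dhcr7, which rose 1.37-fold (adjusted p = 0.00539).

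Genes of ribosome assembly gave small rises. Of 34 assembly and nucleolar genes, 18 rose and 0 fell, with a median of 0.19 (9 and 0 within slide 4). That is 52.9% called against 22.5% over all tested genes. Nop56 and Nhp2 of the RNA-modifying snoRNP particles led them (1.51-fold and 1.41-fold, adjusted p = 9.55e-05 and 0.0001). Ribosomal proteins gave 7 higher and 0 lower of 65, or 10.8% called, below the 22.5% of all genes. Proteasome genes gave 1 and 0 of 37, the immunoproteasome subunit Psmb10 (log2 0.25, adjusted p = 0.0395), whose groups overlapped, a call lost within slide 4 (0.109) and without high 1, high 3, middle 1 or middle 3 (up to 0.133).

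Heme and iron genes gave 3 higher, Hmox1 among them, and 6 lower of 29 (31.0% called against 22.5% over all tested genes), and 2 and 2 within slide 4. Uros, of heme synthesis, fell by 0.34 on the log2 scale (adjusted p = 0.00168), and Aco1, the iron regulatory protein, by 0.28 (adjusted p = 0.00317). Mt1, metallothionein, overlapped between groups on the probe used (log2 0.17, adjusted p = 0.565) and fell on its other probe (log2 -0.84, adjusted p = 0.0441). Of 14 osmolyte and volume genes 1 rose and 2 fell, which is 21.4% called, near the 22.5% over all tested genes. The riser was Slc5a3, the inositol carrier, from 2672, 2167 and 2839.6 to 4774, 6188 and 5030.2 (adjusted p = 0.00101).

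The larger falls included dim and bright genes. Glp1r, the receptor of the gut hormone GLP-1, gave 37.5, 30.2 and 87.1 in middle animals and was not well above background in high animals, at least 2.3-fold lower (adjusted p = 0.0061). Mylk3, a myosin light chain kinase, gave 500.3, 632 and 485 and 260.2, 165 and 233 (log2 -1.31, SE 0.16, adjusted p = 0.00051). F13b, the carrier subunit of clotting factor XIII, gave 1445, 1218 and 1306 and 572, 613 and 656 (log2 -1.11, adjusted p = 0.000284), with the high animals below all others. Lect2, a secreted chemotactic factor, and Cacna1h, a T-type calcium channel, fell 2.1-fold and 2.05-fold (adjusted p = 0.000296 and 0.00105), the log2 change of Cacna1h being -1.04 and after normexp -0.43.

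In 3 of the larger falls 1 middle array stood out. Gh1, growth hormone, was high in middle 2 alone (27.0, 74.8 and 28.5 in the middle and 18.9, 19.5 and 7.69 in the high animals; log2 -1.45, after normexp -0.42), and lost its call within slide 4 (0.299) and without high 1, high 3 or middle 2 (up to 0.13). Nrep, a regeneration-related gene, was likewise high in middle 2 (394, 956 and 324 in the 3 middle animals), its log2 change being -1.09 over all arrays and -0.48 within slide 4, and it lost its call within slide 4 (0.484) and without high 1, high 2 or high 3 (up to 0.107). For Glp1r middle 3 was the high array, and it kept its call without any 1 of the 6 arrays.

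Of macrophage, neutrophil and adipocyte markers, given above, 5 of 16, 1 of 1 and 3 of 5 were called, and of fibroblast and pericyte markers 3 of 10. These shares lay above the 22.5% of all tested genes, but lists this short cannot set the cell types apart from that share. The remaining cell types besides the proximal tubule were called about as often or less. Thick ascending limb markers gave 1 higher and 1 lower of 10 (20.0%), distal convoluted tubule 0 and 1 of 6, principal cells 0 and 1 of 10, intercalated cells 0 and 0 of 11, and podocytes 0 and 0 of 10. By an unadjusted p under 0.05 in limma, 2 of the intercalated cell markers and 1 of the podocyte markers passed. Smooth muscle and renin cells (6 tested markers), B cells (2), red blood cells (5) and adrenal cortex (3) gave 0 calls in limma, with 1, 0, 0 and 1 markers at an unadjusted p under 0.05. Umod, uromodulin of the thick limb, overlapped at 220318, 239005 and 232859.8 and 224666, 219657 and 231447 (log2 -0.034, adjusted p = 0.687). Endothelial markers gave 1 higher and 2 lower of 15 (20.0%), calls that were all lost within slide 4, among them Vwf, von Willebrand factor, at 2141, 2197 and 2169 in middle and 1597, 1256 and 1396 in high animals (log2 -0.62, adjusted p = 0.0102; 0.0572 within slide 4). Fibroblast and pericyte markers gave 3 higher and 0 lower of 10 (30%; 2 and 0 within slide 4), with Pdgfra at 1.22-fold (adjusted p = 0.00208).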

How the data were processed

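Kidney cortex RNA of 12 rats was measured on single-colour rat 4x44K arrays, 3 animals per group. Spot intensities were extracted by the authors with Agilent Feature Extraction 9.1.3.1, per the file headers, and the deposited processed signal is already background-corrected; the genome build behind the probes is not given in the sources used here. The deposited value table holds a ratio of each signal to a constant per array, from 58.9 to 68.5, found by setting it against the scanner signals of 40749 singly spotted probes (within 0.1%), with low values set to 5; its column medians ran from 1.0027 to 1.0051, and it served as an alternative.

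Here, control and outlier spots (10 to 37 per array) were left out, log2 signals were averaged per probe and each array was centred on its 75th percentile. Probes were named by the array's accession or symbol through RefSeq (10735 by accession, 5577 by symbol, 3730 by older symbol, 20970 left with the file's name). A gene was represented by its brightest probe and tested if well above background on all 3 arrays of any group, which left 20755 of 35527. The difference was fitted with limma 3.58.1 in R 4.3.3 over all 12 arrays, so that the groups share 1 estimate of spread, with Benjamini-Hochberg adjustment; the fit was tested on simulated data. The number of arrays limits the precision, and 1 array was available per animal.

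Named genes were the 15 largest rises and falls without overlap, the 2 largest each way in each functional list, the 1 largest each way in each cell type list, and a hand list of known genes. List members named beyond this rule were chosen after their values were seen. The groups, genes and lists were chosen with earlier results of these data known. Alternatives changed the scaling, background, filter, probe, samples, blocks, moderation and weights, and left out each array. Some genes that the rule would name are not reported here.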

Additional observations from a re-analysis of the deposited data

How the results depend on the processing

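As reported there were 4663 calls. Without a filter on dim probes there were 3024 (1636 lower), among more genes tested; with only the high and middle arrays 2539 (1272 higher, 1267 lower), with fewer samples; and with the slide as a block 2022 (1028 higher, 994 lower). With 1 array left out, the count ran from 3153 to 4567, higher calls from 1381 to 1994 and lower calls from 1772 to 2574, the lowest each without high 1. Calls of at least 2-fold, 260 as reported, were 81 after normexp correction, 169 among genes above background on all 12 arrays, and 238 to 269 with 1 array left out. The slide as a random block gave 4371 calls and the scan day as a block, chosen after seeing the data, 4321. The replicate block gave 4063 calls; same-numbered arrays did not deviate together (correlations of -0.118, -0.066 and -0.186), so the numbers only name the animals.

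Of 131 named genes, 90 kept direction and call under the slide block, 36 lost the call, 4 gained it and 1, Gclc, turned to -0.083. Egf, not called, stood at -0.002 after a median shift and in the authors' table, at -0.022 with a scan day block and at -0.042 to 0.054 with 1 array left out. Mt1, not called, stood at -0.333 as the mean of its probes and at -0.006 to 0.314 with 1 array left out. The median of principal cell markers was -0.006 under the slide block. The place of middle 1 was 0.351, of middle 2 0.403 and of middle 3 0.43 without the 2-fold limit, and the place of middle 2 was 0.239 after quantile normalization. The cause of these shifts was not tested. Dim signals limit the size of the largest changes, as the values after normexp correction in the results above show.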

Other observations

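Some of the largest rises belonged to genes outside the lists. Has1, a synthase of the matrix sugar hyaluronan, gave 16.0, 5.97 and 4.61 in the middle and 89.8, 45.5 and 41.8 in the high animals, at least 2.49-fold higher (adjusted p = 0.00787). Best2, a chloride channel gene, gave 4.64, 4.68 and 11.1 and 43.8, 56.2 and 31.6, at least 1.92-fold higher (adjusted p = 0.000599), and the odorant receptor gene Or5w12 was at least 2.88-fold higher at 92.9, 65.7 and 43.2 (adjusted p = 0.00043). The middle signals of these 3 genes were not well above background, and the genes entered the test through the high group alone. Cyp1b1, a P450 of polycyclic compounds and steroids, rose 2.72-fold (adjusted p = 0.000571). Dnah9, a dynein of motile cilia, fell 2.12-fold (adjusted p = 0.00568; log2 -1.08, after normexp correction -0.49).

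The low dose animals were unlike each other for fast genes. Il1b gave 378, 1300.3 and 1248 in low 1, 2 and 3, and Ccl3, a chemokine, gave 417, 2183 and 1716, whereas the high animals gave 2043, 1128 and 1418 and 2912, 2008 and 2529. Low 2 and low 3 lay on other slides than low 1; why they differ was not tested.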
